A study of Homo sapiens with 18 samples.

Results

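The baseline transcriptomes of RCC4 and HKC-8, both derived from human kidney, were compared in normoxia. The comparison used 6 of the 18 RNA-seq samples of the series, 3 normoxic RCC4 and 3 normoxic HKC-8 samples, chosen by the cell line and oxygen given in their labels. RCC4 is a clear cell renal carcinoma line with a mutation in the VHL coding sequence. The samples used here are labelled RCC4+VHL, and the series describes these cells as a stable transfectant of the wild-type gene, and RCC4 without it was not analysed here. The labels call HKC-8 a proximal tubule line and give 21% oxygen. All 6 cultures were grown in the same medium, and polyA-selected RNA was turned into libraries with the same kit. The other 12 samples are hypoxic cultures of both lines and normoxic and hypoxic HepG2 hepatoma cells, and they serve below only to show whether a gene was also on or off elsewhere. Hypoxia differed between the lines, with 1.0% oxygen for 24 h given for RCC4 and 0.5% for 16 h for HKC-8, whose titles give 0.1 instead.

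The proximal tubule is the segment of the nephron that recovers most of the filtered glucose, phosphate, amino acids and bicarbonate, and it secretes organic ions and drugs. Transcription factors such as PAX2 and PAX8 act in the lineage it comes from, and HNF4A in the mature tubule. Clear cell renal carcinoma is thought to arise from this epithelium, most often after loss of the short arm of chromosome 3 with VHL, PBRM1, SETD2 and BAP1. VHL marks the HIF-α subunits for destruction when oxygen is present.

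The total count per library was 42045335 to 49594033 in RCC4 and 81597396 to 84593123 in HKC-8, so that 3 counts, the limit that a count of 0 allows, equalled 0.0605 to 0.0714 and 0.0355 to 0.0368 CPM (counts scaled to a common total per library). Cell line, depth and library series cannot be told apart: the HKC-8 samples were each split over a pair of lanes, and the RCC4 titles carry the word replacement, whose meaning the labels do not give. Nothing in the labels says that replicates were separate cultures, so p-values measure the spread between these samples, which may be technical. That spread was wider in HKC-8 than in RCC4 (edgeR coefficient of variation 0.136 and 0.0418). The fit shared the spread of each gene between the lines, so SE and p-values describe neither line alone. Of the markers of other tissues, 15 of 20 for liver, 10 of 12 for endothelium, 11 of 14 for leukocytes and 6 of 10 for fibroblasts were too low in both lines to test. Among these, ALB (liver) had counts of 0, 0 and 0 in RCC4 and 2, 1 and 0 in HKC-8, PTPRC (leukocytes) 0, 0 and 0 and 2, 2 and 0, COL1A2 (fibroblasts) 0, 0 and 0 and 2, 1 and 0, and KDR (endothelium) 0, 0 and 0 and 0, 0 and 0. The others included 3 large differences towards RCC4, all in liver markers, and 3 towards HKC-8, in the endothelial, leukocyte and fibroblast lists. SERPINA1 (α1-antitrypsin) was at 10.7, 9.62 and 10.8 CPM in RCC4 and 0.0730, 0.274 and 0.182 CPM in HKC-8, CDH5 (VE-cadherin) at 0 counts and 1.68, 1.73 and 2.21 CPM, and PDGFRB (a receptor of pericytes and fibroblasts) at 43.6, 47.9 and 42.5 and 7.12, 4.67 and 10.3 CPM. The summed level of the 20 liver markers was 14.6 to 15.5 CPM in RCC4 and 4.42 to 7.71 CPM in HKC-8, of the 14 leukocyte markers 12.4 to 14.9 and 8.31 to 10.6 CPM, of the 12 endothelial markers 2.60 to 3.03 and 2.17 to 3.13 CPM, and of the 10 fibroblast markers 53.3 to 59.1 and 13.6 to 23.7 CPM. The difference between the lines moved with transcript length and base composition. The median log2 fold change fell from 0.40 in the shortest to -0.46 in the longest of 10 bins of transcript length, and rose from -0.31 in the lowest to 0.59 in the highest of 10 bins of GC content. Their part in single results was not tested, and values fitted after removing this trend ("corrected") are given for lists whose counts changed and for some genes. As RNA came from bulk cultures, fewer expressing cells and less RNA per cell cannot be told apart.

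Of 13755 genes tested, 5687 were higher in RCC4 and 6000 higher in HKC-8 at an edgeR adjusted p under 0.05, which is 41.3%, 43.6% and together 85.0% of the genes tested. The samples of the lines did not overlap in 86.9%. A bare call therefore says little, and the account below rests mainly on size. The shares of a list called in each direction are read against 41.3% and 43.6%. A large difference, at least 32-fold (5 on the log2 scale) without overlap of the samples, was found for 648 genes higher in RCC4 and 633 higher in HKC-8, 4.71%, 4.60% and together 9.31% of the genes tested. The strictest class was on or off: at least 5 CPM in all 3 libraries of one line and at most 0.1 CPM in all 3 of the other. It held 164 genes on in RCC4 and off in HKC-8 and 151 genes on in HKC-8 and off in RCC4, 0.713% and 0.656% of the 23008 genes considered.

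**Figure D1:**
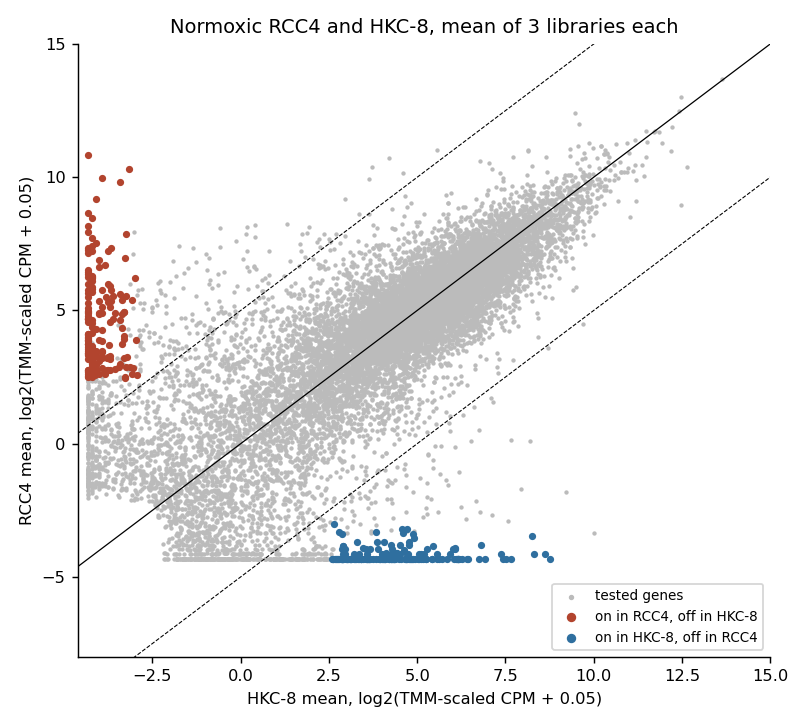
Mean level of each tested gene in normoxic HKC-8 (x axis) and RCC4 (y axis), both as log2 of TMM-scaled CPM plus 0.05, with 1 point per gene and 3 libraries per mean. The solid line marks equal levels and the dashed lines a 32-fold difference. The 164 red and 151 blue points are the on/off genes, which lie along the axes.

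The promoters of some on/off genes are shown for their content of CpG dinucleotides, the sites of DNA methylation, which was not measured here. For the 3 genes of each direction with the widest separation, 0 counts in the off line and a located start, the 150 bases upstream of the GENCODE start are printed 5′ to 3′ on the strand of the gene, read from GRCh37, with every CpG in capitals. The first 3 were on in RCC4 and off in HKC-8. ALDH1A1, a retinaldehyde dehydrogenase, is at chr9:75567970-75568119 (minus strand), SLC34A2, a sodium phosphate cotransporter, at chr4:25657323-25657472 (plus strand), and TM4SF18, a tetraspanin-like membrane protein, at chr3:149051424-149051573 (minus strand).
ALDH1A1: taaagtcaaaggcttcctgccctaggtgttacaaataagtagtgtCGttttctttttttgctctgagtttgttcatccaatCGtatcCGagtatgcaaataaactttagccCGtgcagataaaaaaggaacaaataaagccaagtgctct
SLC34A2: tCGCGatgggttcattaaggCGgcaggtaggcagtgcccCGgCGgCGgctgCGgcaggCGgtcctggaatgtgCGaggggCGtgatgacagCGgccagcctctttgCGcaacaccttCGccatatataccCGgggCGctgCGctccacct
TM4SF18: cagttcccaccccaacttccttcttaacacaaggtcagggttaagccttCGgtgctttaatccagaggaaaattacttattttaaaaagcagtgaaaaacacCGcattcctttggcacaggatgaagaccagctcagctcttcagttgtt
The next 3 were on in HKC-8 and off in RCC4. H1F0, the linker histone H1.0, is at chr22:38201086-38201235 (plus strand), VGLL3, a cofactor of TEAD transcription factors, at chr3:87040300-87040449 (minus strand), and GJA1, the gap junction protein connexin 43, at chr6:121756642-121756791 (plus strand).
H1F0: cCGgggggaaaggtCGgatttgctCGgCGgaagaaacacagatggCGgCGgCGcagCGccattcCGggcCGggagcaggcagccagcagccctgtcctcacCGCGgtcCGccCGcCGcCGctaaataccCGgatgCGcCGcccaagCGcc
VGLL3: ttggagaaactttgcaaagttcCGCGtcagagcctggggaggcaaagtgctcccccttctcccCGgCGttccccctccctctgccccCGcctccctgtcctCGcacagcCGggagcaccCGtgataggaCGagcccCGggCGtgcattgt
GJA1: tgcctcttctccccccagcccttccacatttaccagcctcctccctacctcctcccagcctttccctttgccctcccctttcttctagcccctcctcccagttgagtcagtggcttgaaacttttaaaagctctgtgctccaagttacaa
The stretches of ALDH1A1, SLC34A2 and TM4SF18 hold 4, 16 and 2 CpG, and those of H1F0, VGLL3 and GJA1 hold 20, 11 and 0. The median over all 19683 promoters located was 12, and 5.36% of them held none. Over those of tested genes the median was 15, and 1.25% held none. It was 6.5 for genes on in RCC4 and off in HKC-8, of which 11.5% held none. In the other direction the median was 13, and 1 of 149 promoters, that of GJA1, held none. A promoter was called CpG-rich when the 1000 bases around its start had a GC content of at least 50% and at least 0.6 of the CpG expected from its bases. This held for 82.8% of the 13123 tested genes with a located start and for 90.9% of those on in both lines. It held for 77 of 156 promoters (49.4%) of genes on in RCC4 and off in HKC-8, and for 111 of 149 (74.5%) in the other direction. The median ratio of observed to expected CpG was 0.60 in the first group, 0.72 in the second and 0.78 over all tested genes. These shares are descriptions, and a match or its absence says nothing about methylation in these cells.

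**Figure D2:**
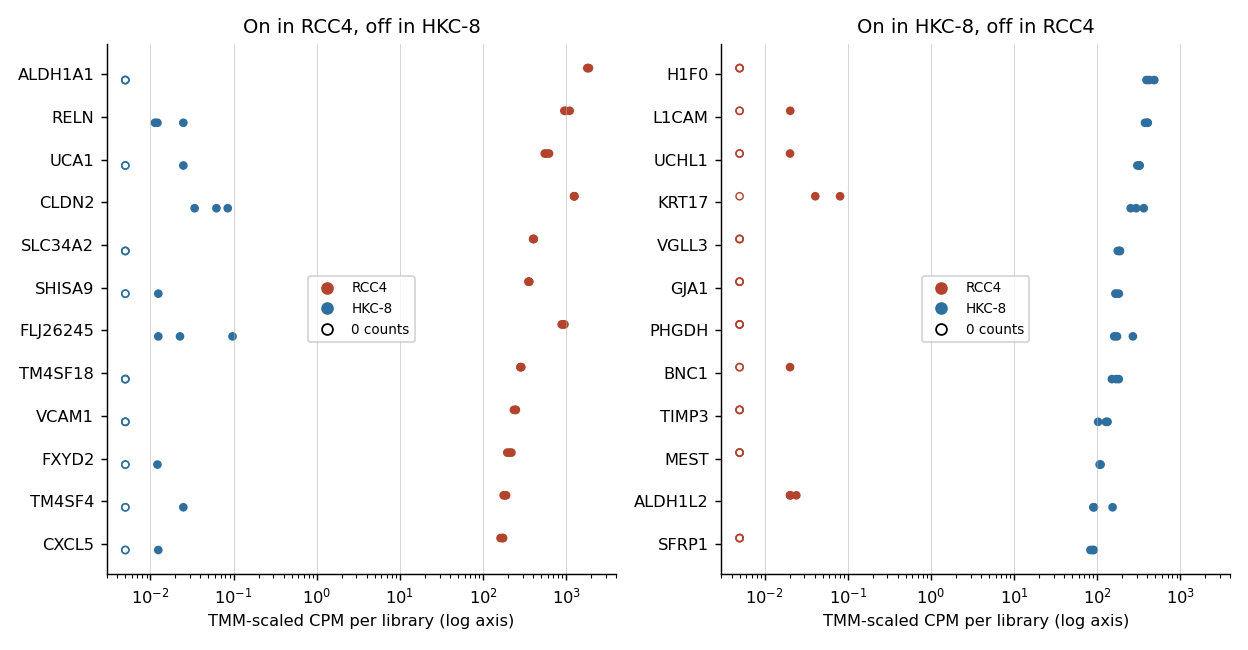
TMM-scaled CPM (log axis) of the 12 on/off genes of each direction with the widest separation, with 1 point per library, red for RCC4 and blue for HKC-8. Open circles at the left edge are libraries with 0 counts. The groups lie at least 1131-fold apart in every gene shown, and the 3 libraries of the on line nearly coincide in most.

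The widest separation of all was that of ALDH1A1, which makes retinoic acid from retinaldehyde. It was at 1839, 1796 and 1881 TMM-scaled CPM in RCC4 and had 0 counts in every HKC-8 library, at least 48471-fold lower. The next was RELN, the secreted glycoprotein reelin, with 989.7, 951 and 1102 CPM in RCC4 and 1, 2 and 1 counts in HKC-8. Its separation, from the lowest CPM in RCC4 to the 3-count limit in HKC-8, was 25678-fold. By another measure, the ratio of summed CPM, RELN was 62303-fold higher in RCC4 (95% counting interval 24333 to 228666). The long noncoding RNA UCA1 was at 576, 553 and 622 CPM against 0, 2 and 0 counts, and CLDN2, the claudin that makes the proximal tubule leaky to cations, at 1250.0, 1252 and 1253 CPM against 7, 5 and 3 counts. These 4 transcripts were thus among the abundant ones of RCC4 and at the edge of detection in HKC-8. Also among the 12 widest was FXYD2, the γ-subunit of the kidney sodium pump, with 196, 208 and 220.1 CPM in RCC4 and 1, 0 and 0 counts in HKC-8. VCAM1, an adhesion molecule for leukocytes, was at 248, 235 and 246 CPM against 0 counts, at least 6354-fold. SHISA9 was at 359, 352 and 358 CPM against 0, 1 and 0 counts. The tetraspanin-like TM4SF18 and TM4SF4 lie 140283 bases apart on chromosome 3, with CP (ceruloplasmin, a ferroxidase) 96669 bases from TM4SF18. All 3 were on in RCC4 and off in HKC-8. In normoxic HepG2, CP was also on (88.0 to 118 CPM of the total), and TM4SF18 and TM4SF4 were between on and off. CXCL5, a neutrophil chemokine, and FLJ26245, a transcript with no located annotation here, complete the 12. SLC34A2 is described with the proximal tubule genes. FXYD2 overlaps DSCAML1, itself on in RCC4 and off in HKC-8, so that reads that fit both may be lost and the counts of the pair are uncertain. The next genes included NETO2, an auxiliary subunit of kainate receptors, at 159, 161 and 164 CPM, and NEFL, the neurofilament light chain, at 146, 144 and 136 CPM.

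In the opposite direction the widest separation was that of H1F0, which is known to accumulate in resting and differentiated cells. It was at 425, 391 and 486 CPM in HKC-8 and had 0 counts in every RCC4 library, at least 5342-fold lower. The neural adhesion molecule L1CAM was at 375, 405 and 399.6 CPM in HKC-8 against 0, 1 and 0 counts in RCC4, and the ubiquitin hydrolase UCHL1 at 324, 321 and 304 CPM against 1, 0 and 0 counts. KRT17, a keratin of basal epithelia, was at 253, 363 and 294 CPM against 4, 2 and 0 counts. Each of these 3 had at least 1 library of RCC4 without a single read. VGLL3 and GJA1 were at 188, 186 and 177 CPM and 182, 165 and 169 CPM in HKC-8, and both had 0 counts in RCC4, at least 2537-fold and 2260.2-fold lower. PHGDH, the entry enzyme of serine synthesis, was at 160.0, 173 and 268 CPM against 0 counts, at least 2259-fold. ALDH1L2, the mitochondrial enzyme of folate metabolism, was at 89.7, 91.5 and 153 CPM against 1, 1 and 1 counts. HKC-8 replicate 3 was above the other two for both of these metabolic genes. TIMP3, an inhibitor of metalloproteinases, the imprinted hydrolase gene MEST, and SFRP1, a secreted Wnt antagonist, were also at 0 in RCC4, at least 1495-, 1461- and 1131-fold lower. BNC1, a zinc finger factor of keratinocytes and mesothelium, was at 168, 182 and 150.01 CPM against 1, 0 and 0 counts. Among abundant genes outside the on/off class, FLNC, the muscle filamin, stood at 1084, 1414 and 619 CPM in HKC-8 and 0.101, 0.0203 and 0.0241 in RCC4.

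In all, 52 of the 164 genes on in RCC4 had 0 counts in the 3 HKC-8 libraries, and 97 of the 151 genes on in HKC-8 had 0 counts in the 3 RCC4 libraries, which were less deep. After thinning every library to the lowest total, 160 of the 164 and all 151 were on/off again. Thinning draws from the same counts that defined these genes and cannot raise a count, so this outcome was largely fixed in advance. The median separation, taken from the lowest CPM of the on line to the highest of the off line or its 3-count limit, was 409-fold and 217-fold. That limit was up to 0.0368 CPM in HKC-8 and up to 0.0714 CPM in the shallower RCC4, so the medians of the directions cannot be compared. Of the genes on in RCC4, 154 were annotated as protein-coding, and of those on in HKC-8, 147. Several on/off genes lie side by side. CDKN2A and CDKN2B lie 7602 bases apart, CRNDE and IRX5 1676, TDRD1 and VWA2 6588, LIN28B, BVES and POPDC3 13490 and 20743. UGT1A9 and UGT1A6 share exons, and CKMT1A and CKMT1B are near-identical copies, so that reads that fit both members of a pair may be lost from the counts. FOXL2 and C3orf72 lie 80 bases apart, so that their reads may be told apart poorly. The strand setting of the counting is not given in the sources used here. PSMD5, an assembly chaperone of the 26S proteasome, was singled out after its values were seen, because its family is used by every cell. It was at 99.3 to 106 CPM of the total in RCC4, 49.1 to 55.6 in HepG2 and had 2, 2 and 1 counts in HKC-8.

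The same genes were looked up in the hypoxic libraries of both lines, which the on/off rule did not use. These differ between the lines in oxygen and duration as well. Their total counts also differed by line, 50103970 to 51794355 in RCC4 and 75441764 to 97984260 in HKC-8. The look-up therefore cannot tell cell line from depth or library series either. Of the 164 genes on in RCC4, 146 were on in all 3 hypoxic RCC4 libraries, 125 were off in all 3 hypoxic HKC-8 libraries, and 111 (67.7%) were both. Of the 151 genes on in HKC-8, 142 were on in hypoxic HKC-8, 132 off in hypoxic RCC4, and 124 (82.1%) both. No gene on in RCC4 exceeded 0.753 CPM in a hypoxic HKC-8 library. In hypoxic RCC4 the highest level of a gene on in HKC-8 was 4.57 CPM, reached by UCHL1, followed by the glucose transporter SLC2A3 at up to 1.11 CPM. In normoxic HepG2, a line of another organ, 46 of the 164 genes on in RCC4 were on, 68 off and 50 in between. Of the 151 genes on in HKC-8, 54 were on in HepG2, 26 off and 71 in between, so the share off in HepG2 as well was 41.5% in the first group and 17.2% in the second.

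Kidney lineage transcription factors were called about as often as all genes, but many of the differences were large. Of 59 on the list, 41 were tested, 18 were higher in RCC4 (43.9%) and 17 in HKC-8 (41.5%), and 20 of the 41 differences were large (48.8%, against 9.31% of all genes tested), 13 towards RCC4 and 7 towards HKC-8. Of the 59, 7 were on in RCC4 and off in HKC-8, and 1 was on in HKC-8 and off in RCC4. Among the 7, SALL1 (35.6 to 38.8 CPM of the total) and HNF4G (11.2 to 15.9) were also on in normoxic HepG2. MAF was in between there, and PAX2, TBX18, IRX5 and SIM1 were off. PAX2, which marks the nephric lineage and is retained in most clear cell carcinomas, was at 34.8, 35.9 and 35.2 CPM in RCC4. It had 0, 0 and 4 counts in HKC-8, so that the groups were far apart. Its relative PAX8 was present in both, at 135, 139.8 and 131 CPM in RCC4 and 179, 182 and 142 in HKC-8 (log2 fold change -0.31 ± 0.09 SE, edgeR adjusted p = 0.0103). PAX8 thus differed little between the lines, while PAX2 was far higher in the carcinoma line. SALL1, a zinc finger factor of the nephron progenitor, was at 34.7, 33.0 and 34.8 CPM in RCC4 against 0 counts. TBX18, known from the ureteric mesenchyme, was at 88.3, 78.6 and 82.0 CPM and IRX5 at 17.6, 17.0 and 17.3 CPM, both with 0 counts in HKC-8. SIM1 and MAF, transcription factors of the tubule lineage, were at 20.5, 19.5 and 21.6 and 25.6, 24.4 and 24.3 CPM in RCC4, each with 1 count in a single HKC-8 library. HNF4G, of the on/off class, was at 27.1 to 29.4 CPM of the total in RCC4 with 1, 1 and 1 counts in HKC-8. HNF4A, a nuclear receptor of the mature tubule and liver, was too low to test in either line, at 0.0202, 0.102 and 0.0962 CPM in RCC4 and 0.0122, 0.0498 and 0 CPM in HKC-8. On the HKC-8 side TBX3, a repressor of cell cycle inhibitors, was at 17.8, 17.6 and 15.1 CPM against 0 counts, at least 220.2-fold. GATA3, HMX2, SALL4 and OSR1 were also at 0 in RCC4 but low in HKC-8, from 0.424 to 3.13 CPM.

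**Figure D3:**
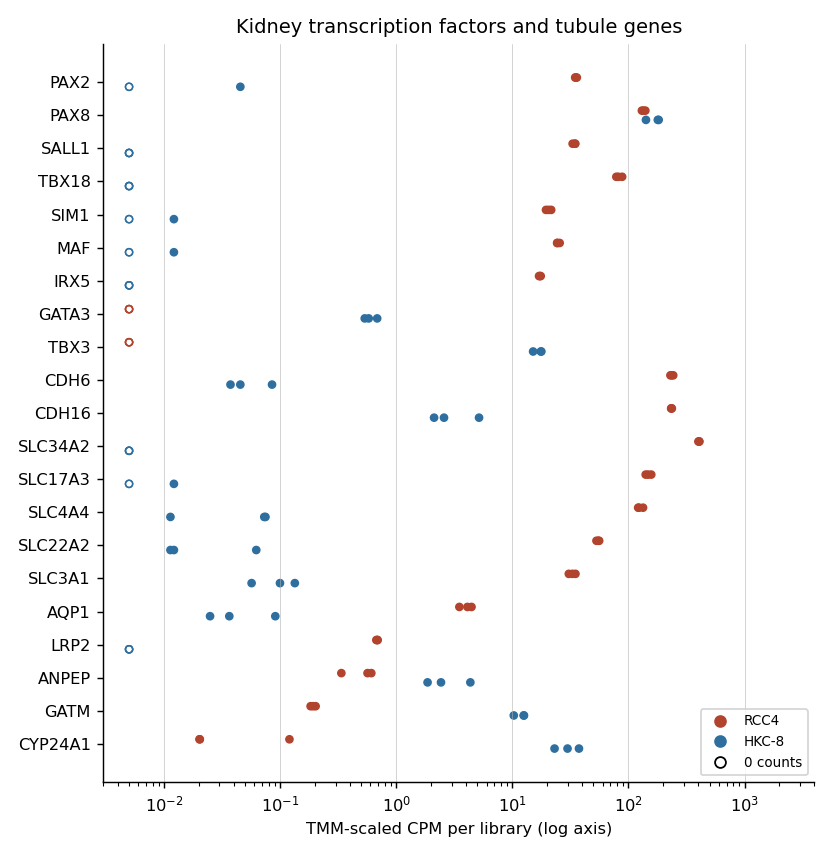
TMM-scaled CPM (log axis) per library of kidney transcription factors (PAX2 to TBX3) and tubule genes (CDH6 to CYP24A1), with red points for RCC4, blue for HKC-8 and open circles for 0 counts. PAX8 lies close together in both lines, while most transporters lie far to the right in RCC4 alone.

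Genes of the proximal tubule's transport and metabolism were mostly higher in the carcinoma line. Of 64 listed, 38 were tested, 29 were higher in RCC4, 7 in HKC-8 and 2 did not differ by the test, with a median log2 fold change of 4.11 against -0.03 over all genes. Large differences favoured RCC4 by 17 to 3, and 25 of the 64 were off in both lines. SLC34A2, listed with SLC34A1 and SLC34A3 as a family of phosphate cotransporters, was at 406, 408 and 400.4 CPM in RCC4 and at 0 counts in HKC-8, at least 10767-fold. The other members of that family are not described here, so its value does not speak for phosphate transport in the tubule. SLC17A3, which exports urate, was at 148, 141 and 157 CPM with 1, 0 and 0 counts in HKC-8, and its neighbour in the family SLC17A1 at 2.79, 2.83 and 3.44 CPM against 0 counts. SLC4A4, the basolateral bicarbonate cotransporter, was at 123, 121 and 134 CPM in RCC4 and 0.0730, 0.0748 and 0.0114 in HKC-8. SLC22A2, the organic cation transporter OCT2, was at 53, 55.0 and 56.0 CPM in RCC4 and 0.0122, 0.0623 and 0.0114 CPM in HKC-8. The RNA of these listed carriers thus separated the lines without overlap, and transport was not measured. GGT1 and HAVCR1 are added here after their values were seen. GGT1, the brush border γ-glutamyltransferase, was at 175, 170.4 and 166 CPM in RCC4 and 0.134, 0.299 and 0.307 in HKC-8, and HAVCR1, the injury marker KIM-1, at 278, 266 and 257 CPM in RCC4 and 17.8, 17.3 and 25.8 CPM in HKC-8. The exceptions included enzymes. CYP24A1, which inactivates vitamin D, was at 29.9, 37.5 and 23.1 CPM in HKC-8 and 0.0202, 0.0203 and 0.120 in RCC4 (log2 fold change -9.18 ± 0.37 SE, edgeR adjusted p = 9.97e-09), and GATM, the first enzyme of creatine synthesis, at 10.3, 12.5 and 12.6 CPM in HKC-8 and 0.202, 0.183 and 0.192 CPM in RCC4 (log2 fold change -5.92 ± 0.19 SE, edgeR adjusted p = 2.90e-09). HPD, of tyrosine breakdown, CYP27B1, which activates vitamin D, and the peptidase ANPEP were also higher in HKC-8.

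Of 14 general markers of tubule epithelium, 13 were tested, 8 were higher in RCC4 and 4 in HKC-8, and all 6 large differences were towards RCC4. Their summed level was 2889 to 2966 CPM in RCC4 and 3037 to 3213 CPM in HKC-8. CDH6, the cadherin of the proximal tubule, was at 243, 229.9 and 236 CPM in RCC4 with 7, 3 and 4 counts in HKC-8. CDH16, a kidney-specific cadherin, was at 235, 233 and 237 CPM in RCC4 and 2.58, 2.12 and 5.17 CPM in HKC-8 (log2 fold change 6.15 ± 0.28 SE, edgeR adjusted p = 2.15e-08). SLC3A1, the subunit of the cystine transporter, was at 32.9, 30.6 and 35.0 CPM in RCC4 and 0.134, 0.0997 and 0.0568 CPM in HKC-8. AQP1, the water channel, was at 4.10, 3.50 and 4.45 CPM in RCC4 and 0.0365, 0.0249 and 0.0909 CPM in HKC-8, and the endocytic receptor LRP2 at 0.687, 0.691 and 0.674 CPM in RCC4 and 0 counts in HKC-8, both low even in RCC4. The simple epithelial keratins were abundant in both lines and somewhat higher in HKC-8, with KRT8 at 1131, 1217 and 1155 CPM in RCC4 and 1753, 1785 and 1691 CPM in HKC-8 (log2 fold change -0.58 ± 0.06 SE, edgeR adjusted p = 8.41e-06). HKC-8 therefore had the keratins, PAX8 and EPCAM of these general markers, and ANPEP was higher there than in RCC4 (corrected log2 fold change -2.63). HKC-8 nearly lacked PAX2 and CDH6. LRP2, at 0 counts in HKC-8, was low in RCC4 as well. Of 31 markers of other nephron segments, 11 were tested, 7 higher in RCC4 and 4 in HKC-8. PTPRO, a phosphatase of podocytes, was at 26.4, 24.6 and 28.4 CPM against 0 counts in HKC-8. BCAT1, a transaminase of branched-chain amino acids, was the opposite, at 562, 606 and 609 CPM in HKC-8 and 0.283, 0.183 and 0.241 in RCC4 (log2 fold change -11.29 ± 0.11 SE, edgeR adjusted p = 9.86e-12). Of the 31, which include markers of podocytes and of the distal nephron, 18 were off in both lines.

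Of 35 HOX genes tested, which record the position along the body axis, 15 were higher in RCC4 and 15 in HKC-8 (both 42.9%, near the shares over all genes), with a median of -0.02, and after correction 14 and 16. Of the large differences, 1 was towards RCC4 and 8 were towards HKC-8. HOXB7, HOXB6 and HOXB8 were higher in RCC4, HOXB7 at 36.3, 37.4 and 37.4 CPM in RCC4 and 4.45, 3.94 and 5.63 CPM in HKC-8 (log2 fold change 2.98 ± 0.13 SE, edgeR adjusted p = 1.60e-08). HOXB13, HOXD10 and HOXD11, at the posterior end of their clusters, had 0 counts in RCC4 and were at 4.53, 3.49 and 4.24, 0.730, 1.10 and 1.37 and 0.986, 1.23 and 1.16 CPM in HKC-8. HOXC11 was at 17.6, 18.1 and 16.9 CPM in HKC-8 and 0.182, 0.203 and 0.168 in RCC4 (log2 fold change -6.55 ± 0.16 SE, edgeR adjusted p = 4.87e-10).

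Epithelial and mesenchymal genes were found side by side in both lines. E-cadherin (CDH1) was nearly absent from both, at 0.687, 0.447 and 0.794 CPM in RCC4 and 0.742, 0.511 and 2.16 in HKC-8 (log2 fold change -0.83 ± 0.53 SE, edgeR adjusted p = 0.166), and the groups overlapped. N-cadherin (CDH2) was at 411, 395 and 389.8 CPM in RCC4 and 196, 203 and 172 CPM in HKC-8 (log2 fold change 1.07 ± 0.07 SE, edgeR adjusted p = 3.28e-07), and vimentin (VIM) at 1873, 1919.6 and 1849 CPM in RCC4 and 1260.4, 1485 and 1236 CPM in HKC-8 (log2 fold change 0.50 ± 0.08 SE, edgeR adjusted p = 1.82e-04). EPCAM, an epithelial adhesion molecule, was at 71.7, 65.8 and 73.9 CPM in RCC4 and 31.4, 29.1 and 32.3 CPM in HKC-8 (log2 fold change 1.19 ± 0.07 SE, edgeR adjusted p = 1.74e-07). Both mesenchymal markers and EPCAM were thus present in both lines and higher in RCC4. Of 44 epithelial junction and keratin genes tested, 23 were higher in RCC4 and 16 in HKC-8, with 7 large differences each way, and of 43 after correction, 22 and 16. Besides CLDN2, CDH6 and CDH16, those higher in RCC4 included CD24, a mucin-like surface antigen without a single annotated position here, at 2047, 2015 and 2163 CPM in RCC4 and 42.9, 35.9 and 63.3 CPM in HKC-8 (log2 fold change 5.45 ± 0.20 SE, edgeR adjusted p = 6.51e-09). Higher in HKC-8 were SPINT1, an inhibitor of matriptase, at 39.1, 37.4 and 40.7 CPM against 0, 1 and 1 counts, and P-cadherin (CDH3) at 16.6, 11.4 and 23.8 CPM against 0, 0 and 1 counts. CDH3 is, like KRT17, known from basal and stratified epithelia.

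Of 35 mesenchymal genes and EMT factors tested, 17 were higher in RCC4 and 15 in HKC-8, near the shares over all genes, and after correction 17 and 16. Large differences numbered 1 and 5. SNAI2, a repressor of E-cadherin, was at 25.2, 24.0 and 21.2 CPM in RCC4 and 0.304, 0.511 and 0.375 in HKC-8 (log2 fold change 5.89 ± 0.18 SE, edgeR adjusted p = 1.85e-09). TGFBI, an extracellular matrix protein, was at 2119.6, 2141 and 2043 CPM in RCC4 and 274, 285 and 279 CPM in HKC-8 (log2 fold change 2.91 ± 0.06 SE, edgeR adjusted p = 1.79e-10). In HKC-8 the matrix proteins tenascin (TNC) and fibrillin 1 (FBN1) stood out, TNC at 199, 268 and 104 CPM against 1, 2 and 8 counts and FBN1 at 40.5, 47.8 and 53.6 CPM against 1, 0 and 0 counts. FOXF2, a mesenchymal forkhead factor, was at 19.8, 25.6 and 31.0 CPM against 0 counts, at least 280.0-fold. Fibronectin (FN1), added after its values were seen, was abundant in both at 514, 479.5 and 496 CPM in RCC4 and 5205, 6978 and 4742 CPM in HKC-8 (log2 fold change -3.51 ± 0.14 SE, edgeR adjusted p = 1.02e-08). Of 25 collagens tested, 10 were higher in RCC4 and 12 in HKC-8, and after correction 10 and 13. The basement membrane chain COL4A1 was at 1134, 1125 and 1028 CPM in RCC4 and 300.2, 261 and 260.5 CPM in HKC-8 (log2 fold change 2.00 ± 0.08 SE, edgeR adjusted p = 7.59e-09), COL6A2 at 69.1, 67.7 and 61.0 CPM in RCC4 and 3.70, 2.28 and 2.51 CPM in HKC-8 (log2 fold change 4.54 ± 0.16 SE, edgeR adjusted p = 5.54e-09), and COL5A3 at 37.8, 34.2 and 30.9 CPM in HKC-8 against 1, 0 and 0 counts in RCC4. Of 14 protocadherins tested, 11 were higher in RCC4 and 1 in HKC-8, with a median log2 fold change of 2.88. PCDH20 led at 47.8, 50.3 and 42.3 CPM against 2, 0 and 6 counts in HKC-8. Members of the α and γ clusters share exons, so that reads that fit several members may be lost and their counts are uncertain.

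VHL itself was at 66.0, 66.1 and 68.4 CPM in RCC4 and 83.8, 82.6 and 95 in HKC-8 (log2 fold change -0.38 ± 0.07 SE, edgeR adjusted p = 4.55e-04), and the groups did not overlap. Gene counts do not separate the introduced VHL from the line's own mutated gene. HIF1A was at 379, 377 and 369 CPM in RCC4 and 390.2, 371 and 352 CPM in HKC-8 (log2 fold change 0.02 ± 0.06 SE, edgeR adjusted p = 0.799). Its groups overlapped, and the corrected log2 fold change was 0.29. EPAS1, which encodes HIF-2α, was at 257, 261 and 249 CPM in RCC4 and 72.2, 68.2 and 82.4 CPM in HKC-8 (log2 fold change 1.78 ± 0.08 SE, edgeR adjusted p = 1.46e-08), and ARNT, which encodes HIF-1β, at 46.1, 43.8 and 48.0 CPM in RCC4 and 59.0, 55.5 and 67.8 CPM in HKC-8 (log2 fold change -0.40 ± 0.08 SE, edgeR adjusted p = 0.00126). Of the 35 HIF pathway genes tested, 15 were higher in RCC4, 17 in HKC-8 and 3 did not pass, with a median of -0.03. After correction the counts were 18 and 15. CA9, the carbonic anhydrase that is the standard marker of VHL-deficient clear cell carcinoma, had 0 counts in all 3 RCC4 libraries and was at 6.84, 4.61 and 4.87 CPM in HKC-8, at least 63.0-fold higher. CA12 was at 63.9, 65.1 and 53.2 CPM in HKC-8 against 0, 1 and 0 counts in RCC4, and EGLN3, an oxygen-sensing prolyl hydroxylase, at 1.64, 1.53 and 2.17 CPM against 1, 1 and 0 counts. These 3 HIF targets were thus off or nearly off in the carcinoma line in normoxia. Others were higher there, with SLC2A1, the glucose transporter GLUT1, at 250.1, 261 and 255 CPM in RCC4 and 59.7, 56.6 and 47.6 CPM in HKC-8 (log2 fold change 2.22 ± 0.08 SE, edgeR adjusted p = 7.40e-09), and BHLHE40, a repressor of the circadian network, at 75.1, 83.1 and 74.5 CPM in RCC4 and 18.9, 16.3 and 21.5 CPM in HKC-8 (log2 fold change 2.04 ± 0.10 SE, edgeR adjusted p = 4.92e-08).

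Of 31 tested markers of clear cell renal carcinoma, 21 were higher in RCC4 and 7 in HKC-8, with a median log2 fold change of 1.99, and after correction 19 and 7. CA9 and EGLN3 were among the 7. TGFA, a ligand of the EGF receptor, was at 141, 137 and 139.8 CPM in RCC4 and 0.110, 0.0374 and 0.0682 in HKC-8 (log2 fold change 10.88 ± 0.14 SE, edgeR adjusted p = 2.11e-11). SAA1, an acute phase protein with a near-identical copy in SAA2, was at 12, 12.1 and 11.2 CPM against 0 counts, and TNFAIP6, a hyaluronan-binding protein, at 8.02, 8.48 and 8.59 CPM against 1, 0 and 0 counts. SCARB1, a receptor for high-density lipoprotein, and the noncoding RNA PVT1 were higher in HKC-8, SCARB1 at 214, 232 and 169 CPM in HKC-8 and 52.7, 51.6 and 50.7 CPM in RCC4 (log2 fold change -1.99 ± 0.11 SE, edgeR adjusted p = 7.34e-08). Of 36 receptor tyrosine kinases tested, 17 were higher in RCC4 (47.2%) and 11 in HKC-8 (30.6%), and after correction 19 and 10, while large differences numbered 4 towards RCC4 and 5 towards HKC-8. EGFR was at 253, 246 and 244 CPM in RCC4 and 29.1, 32.0 and 27.0 CPM in HKC-8 (log2 fold change 3.08 ± 0.07 SE, edgeR adjusted p = 4.45e-10), and MET, the receptor of hepatocyte growth factor, at 739.8, 729 and 765 CPM in RCC4 and 177, 179 and 142 CPM in HKC-8 (log2 fold change 2.16 ± 0.09 SE, edgeR adjusted p = 1.31e-08). EPHA7, an ephrin receptor, was at 31.7, 28.3 and 32.9 CPM against 0 counts, FLT3 at 4.91, 5.19 and 5.44 CPM against 0 counts, and ROR1 at 85.6, 81.3 and 86.0 CPM in RCC4 and 0.365, 0.274 and 0.193 CPM in HKC-8 (log2 fold change 8.25 ± 0.14 SE, edgeR adjusted p = 6.89e-11). Both the ligand TGFA and its receptor EGFR were therefore higher in RCC4. KIT and EPHA5 were at 0 in RCC4 and under 1 CPM in HKC-8.

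The locus of the cell cycle inhibitors CDKN2A and CDKN2B on chromosome 9 gave no reads in RCC4. CDKN2A, which encodes p16 and p14ARF, was at 66.7, 68.4 and 69.9 CPM in HKC-8 and had 0 counts in every RCC4 library, at least 934-fold lower. CDKN2B, which encodes p15, was at 20.4, 18.2 and 22.3 CPM against 0 counts, at least 248-fold. MTAP, the methionine salvage enzyme next to them, added after its values were seen, was detected at 66.0, 64.4 and 63.7 CPM in RCC4 and 124, 131 and 114 in HKC-8 (log2 fold change -0.92 ± 0.07 SE, edgeR adjusted p = 5.40e-07). Reads were thus absent from CDKN2A and CDKN2B and present from MTAP. Of 37 tumour suppressor genes tested, 12 were higher in RCC4 and 22 in HKC-8, with a median of -0.57, and after correction 14 and 22. PBRM1, the chromatin remodelling subunit often mutated in clear cell carcinoma, was at 3.48, 2.89 and 2.43 CPM in RCC4 and 146, 143 and 138 in HKC-8 (log2 fold change -5.59 ± 0.11 SE, edgeR adjusted p = 1.58e-10), and its corrected log2 fold change was -5.18. The neighbours on the same arm, chosen after their values were seen, were less different. SETD2, a histone H3 lysine 36 methyltransferase, was at 30.9, 29.6 and 25.3 CPM in RCC4 and 136, 146 and 134 CPM in HKC-8 (log2 fold change -2.28 ± 0.08 SE), and BAP1, a deubiquitinase, at 65.9, 64.8 and 61.3 CPM in RCC4 and 108, 112 and 108 CPM in HKC-8 (log2 fold change -0.77 ± 0.06 SE). KDM5C, a histone H3 lysine 4 demethylase encoded on the X chromosome and likewise chosen, was at 3.36, 3.48 and 2.84 CPM in RCC4 and 132, 147 and 133 CPM in HKC-8 (log2 fold change -5.41 ± 0.09 SE, edgeR adjusted p = 7.37e-11). Of the Wnt antagonists, SFRP1 and DKK1 were at 0 in RCC4, with DKK1 at 22.3, 30.6 and 13.7 CPM in HKC-8, whereas SFRP4 was at 8.61, 9.33 and 7.63 CPM in RCC4 against 1, 0 and 2 counts. CDKN1C, the imprinted inhibitor p57, was at 2.36, 1.77 and 1.80 CPM in RCC4 against 0, 3 and 0 counts.

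Genes of replication and mitosis were mostly higher in HKC-8, with 40 of 59 against 13, and a median of -0.69. After correction the counts were 43 and 13. MKI67, the proliferation antigen Ki-67, was at 42.5, 45.2 and 45.0 CPM in RCC4 and 446, 494 and 415 in HKC-8 (log2 fold change -3.35 ± 0.08 SE, edgeR adjusted p = 3.74e-10, corrected -2.93). The kinetochore proteins CENPF and CENPE had log2 fold changes of -3.51 ± 0.06 and -6.27 ± 0.14 (SE) and corrected values of -3.00 and -5.72. CENPE, the wider apart, was at 1.25, 1.65 and 1.23 CPM in RCC4 and 121, 98 and 101 CPM in HKC-8. MYBL2, a factor of late G1 and G2, was at 182, 193 and 167 CPM in RCC4 and 831, 937 and 838 CPM in HKC-8 (log2 fold change -2.26 ± 0.08 SE, edgeR adjusted p = 3.66e-09). TERT, the telomerase subunit, was at 0.263, 0.0610 and 0.192 CPM in RCC4 and 3.02, 2.92 and 1.62 CPM in HKC-8. Cyclin E1 (CCNE1), PCNA and survivin (BIRC5) were higher in RCC4, with CCNE1 at 19.3, 18.2 and 17.5 CPM in RCC4 and 4.60, 5.31 and 4.88 CPM in HKC-8 (log2 fold change 1.89 ± 0.11 SE, edgeR adjusted p = 9.81e-08). The list was therefore not uniform, and the exceptions included genes of the G1/S transition and replication. TK1 was higher in RCC4 as fitted but, with a corrected log2 fold change of 0.20, did not pass after correction.

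Of all the lists described here, cytokines and chemokines had the highest share in one direction, with 28 of 33 tested higher in RCC4, 3 in HKC-8 and 2 not called, with a median log2 fold change of 4.54. Of the 28, 14 were large, and no large difference favoured HKC-8. VCAM1, CXCL5, SAA1 and TNFAIP6 were described above. IL7, the lymphocyte growth factor, was at 2.10, 2.56 and 2.26 CPM in RCC4 against 0 counts. Chosen after their values were seen, IL6 was at 6.06, 5.90 and 6.74 CPM in RCC4 and 0.158, 0.187 and 0.239 CPM in HKC-8, IL8 at 13.6, 14.5 and 14 CPM in RCC4 and 0.304, 1.03 and 0.443 CPM in HKC-8, and complement C3 at 287, 291 and 250.3 CPM in RCC4 and 14.4, 12.4 and 16.9 CPM in HKC-8. ICAM1, likewise chosen, was closer, at 126, 123 and 114 CPM in RCC4 and 102, 102 and 80.3 CPM in HKC-8 (log2 fold change 0.36 ± 0.09 SE, edgeR adjusted p = 0.00539). The 3 exceptions were IL11, at 10.1, 14.5 and 6.37 CPM in HKC-8 and 1.39, 1.48 and 1.20 in RCC4 (log2 fold change -2.92 ± 0.30 SE, edgeR adjusted p = 7.96e-06), CXCL16 and CCL26.

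Interferon-stimulated genes were less one-sided, with 27 of 46 higher in RCC4 and 12 in HKC-8, a median of 0.80, and 4 and 1 large differences. After correction 26 and 11 were called. TRIM22, an antiviral ubiquitin ligase, was at 95.1, 93.9 and 98.9 CPM in RCC4 and 0.389, 0.150 and 0.375 CPM in HKC-8 (log2 fold change 8.28 ± 0.18 SE, edgeR adjusted p = 2.93e-10), and BST2, the virion tether tetherin, at 51.8, 52.0 and 53 CPM in RCC4 and 1.25, 0.436 and 0.795 CPM in HKC-8 (log2 fold change 5.97 ± 0.25 SE, edgeR adjusted p = 1.24e-08). IFI44L was at 4.14, 4.98 and 6.28 CPM against 0 counts. Lower in RCC4 were HERC5, the ISG15 ligase, at 0.384, 0.691 and 0.457 CPM in RCC4 and 10.6, 8.76 and 12.5 CPM in HKC-8 (log2 fold change -4.37 ± 0.24 SE, edgeR adjusted p = 7.98e-08), and the GTPase GBP2 at 1.5, 1.44 and 1.08 CPM in RCC4 and 10.4, 15 and 18.2 CPM in HKC-8 (log2 fold change -3.43 ± 0.24 SE, edgeR adjusted p = 4.48e-07). Of 20 genes of antigen presentation tested, 7 were higher in RCC4 and 8 in HKC-8, and after correction 6 and 10. TAP1, a subunit of the peptide transporter, and PSMB8, an immunoproteasome subunit, had 0 counts in every RCC4 library and were at 0.329, 0.311 and 0.204 and 0.779, 0.772 and 1.03 CPM in HKC-8, low levels in both cases. HLA-B was at 46.5, 40.8 and 50.1 CPM in RCC4 and 30.1, 16.4 and 8.70 CPM in HKC-8 (log2 fold change 1.32 ± 0.35 SE, edgeR adjusted p = 0.00535), counts that depend on the similarity of the line's alleles to the reference. CD74, the MHC class II chaperone, was at 185, 195 and 172 CPM in RCC4 and 35.6, 30.1 and 38.7 CPM in HKC-8 (log2 fold change 2.40 ± 0.10 SE, edgeR adjusted p = 1.05e-08).

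Enzymes of drug metabolism and antioxidant defence were higher in RCC4 in 27 of 43 tested genes and in HKC-8 in 11, with a median of 1.30, and after correction in 28 and 10. Large differences numbered 10 and 7. UGT1A6, a glucuronosyltransferase, was at 154, 149 and 155 CPM in RCC4 and 0 counts in HKC-8, and UGT2B7, another of the class, at 28.1, 29.9 and 31.4 CPM and 0 counts. Members of both families share sequence, so reads that fit several members may be lost and their counts are uncertain. ABCB1, the multidrug pump P-glycoprotein, added after its values were seen, was at 273, 271 and 283 CPM in RCC4 and 0.499, 0.424 and 0.920 CPM in HKC-8 (log2 fold change 8.79 ± 0.19 SE, edgeR adjusted p = 2.28e-10). The other drug pump ABCG2 was the reverse, at 6.91, 7.40 and 9.90 CPM in HKC-8 and 0 counts in RCC4, at least 97.6-fold. The glutathione transferases GSTM4 and GSTM1, which are similar in sequence, also went opposite ways, GSTM4 at 12, 12.3 and 13.5 CPM in RCC4 against 0, 0 and 1 counts and GSTM1 at 25.6, 25.4 and 25.3 CPM in HKC-8 against 7, 7 and 3 counts. Of 6 metallothioneins tested, 2 were higher in RCC4 and 3 in HKC-8 as fitted, and 0 and 4 after correction, with a corrected median of -0.64. MT1E was at 115, 110.3 and 116 CPM in RCC4 and 78.6, 104 and 80.9 CPM in HKC-8 (log2 fold change 0.38 ± 0.10 SE, edgeR adjusted p = 0.00551), and its sign turned after correction (-0.20), while MT1L was at 3.67, 4.55 and 4.03 CPM in HKC-8 against 0, 1 and 1 counts.

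Among 31 imprinted genes tested, 13 were higher in RCC4 (41.9%) and 15 in HKC-8 (48.4%), near the shares over all genes, and after correction the order turned to 15 and 14. MEST, described above, and NAP1L5, at 8.63, 7.35 and 9.65 CPM, were on in HKC-8 with 0 counts in RCC4, whereas FAM50B was at 14.8, 15.1 and 13.9 CPM in RCC4 with 0 counts in HKC-8. GRB10, an adaptor of growth factor receptors, was at 138, 142 and 139 CPM in RCC4 and 28.3, 32.1 and 35.5 CPM in HKC-8 (log2 fold change 2.13 ± 0.08 SE, edgeR adjusted p = 8.88e-09). Of 69 cancer-testis antigens, 58 were off in both lines. TDRD9, a helicase of the piRNA pathway, was at 58.0, 61.1 and 59.5 CPM in RCC4 against 1, 0 and 0 counts, and PRAME at 11.3, 10.9 and 11 CPM against 0, 1 and 1 counts. TDRD1, of the same pathway as TDRD9, was at 82.0, 85.4 and 64.9 CPM in HKC-8 and 0 counts in RCC4, at least 946-fold. Of 27 long noncoding RNAs tested, 9 were higher in RCC4 and 14 in HKC-8, and after correction 11 and 11. CRNDE, which lies beside IRX5, was at 23.9, 22.3 and 25.3 CPM in RCC4 against 0 counts. The nuclear transcripts MALAT1 and NEAT1 were higher in HKC-8, MALAT1 at 10.3, 9.15 and 11.8 CPM in RCC4 and 248, 92.7 and 122 CPM in HKC-8 (log2 fold change -3.89 ± 0.34 SE, edgeR adjusted p = 2.84e-06).

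Families taken whole by symbol gave a measure of broad shifts. Of 459 zinc finger genes with symbols that begin with ZNF, 143 were higher in RCC4 and 228 in HKC-8, with a median of -0.31. After correction 154 and 211 were called. ZNF114 was at 47.1, 44 and 44.7 CPM in RCC4 against 3, 2 and 0 counts, and ZNF711 and ZNF280B at 12.3, 11.5 and 14.2 and 15, 15.2 and 17.9 CPM in HKC-8 with 0 counts in RCC4. Of 77 cytosolic ribosomal protein genes, 41 were higher in RCC4 and 23 in HKC-8, with a median of 0.25, and after correction 30 and 29. None of the 77 differences was large. RPS16, at 765, 824 and 806 CPM in RCC4 and 260.3, 276 and 215 CPM in HKC-8 (log2 fold change 1.67 ± 0.09 SE, edgeR adjusted p = 7.83e-08), and RPL41, at 214, 227 and 227 CPM in RCC4 and 726, 764 and 737 CPM in HKC-8 (log2 fold change -1.74 ± 0.06 SE, edgeR adjusted p = 2.67e-09), were among the widest apart. Both have near-identical pseudogenes, so their counts are uncertain.

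**Figure D4:**
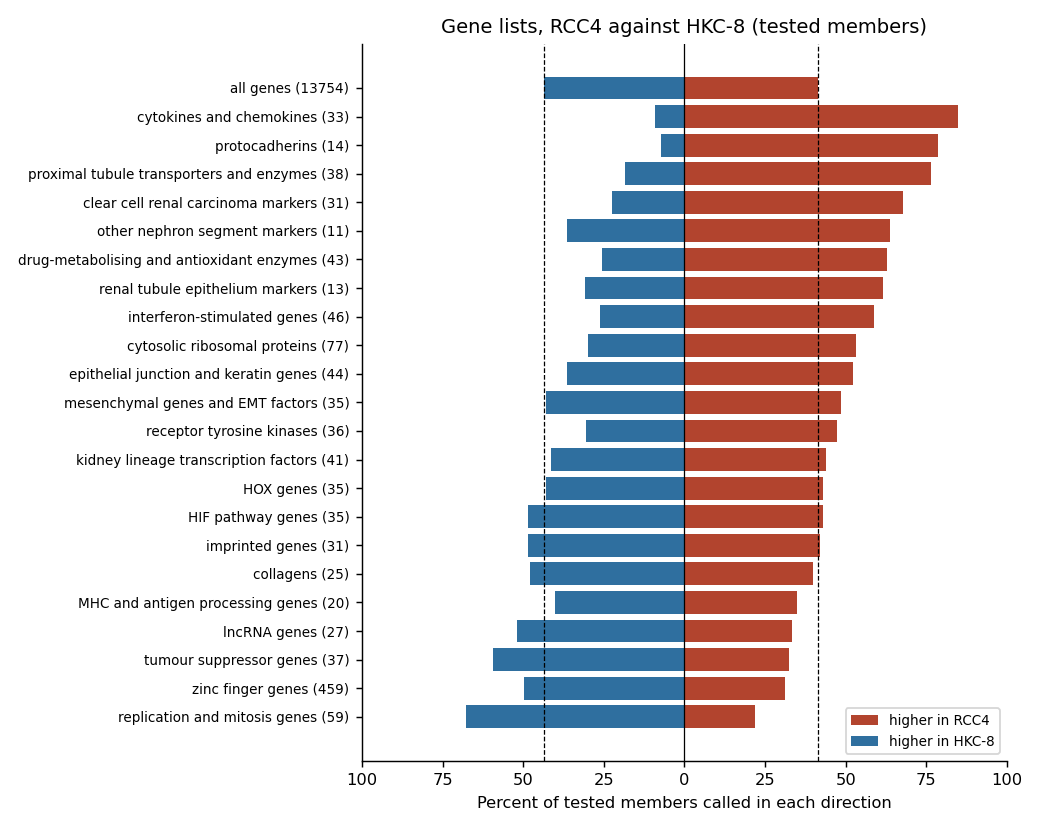
Percent of the tested members of each list that were higher in RCC4 (red, to the right) or in HKC-8 (blue, to the left), with the number tested in brackets. The dashed lines mark the shares over all genes, 41.3% and 43.6%. Cytokines and chemokines reach 84.8% in RCC4, and replication and mitosis genes 67.8% in HKC-8.

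Differences were also read along the chromosomes, over the 41 arms with at least 50 tested genes. The short arm of chromosome 7 stood apart, with a median log2 fold change of 1.33 over 222 genes, of which 81.1% were higher in RCC4 and 11.3% in HKC-8. After the length and GC correction it was 1.37. EGFR, GRB10 and SFRP4, described above, lie on this arm. The next arms towards RCC4 were the long arms of chromosomes 19 (0.61) and 13 (0.59). At the other end lay 15q (-0.82), 5p (-0.77), Xp (-0.76), 14q (-0.60) and 3p (-0.58). On 3p, which carries VHL, PBRM1, SETD2 and BAP1, 59.4% of 362 genes were higher in HKC-8 and 25.7% in RCC4, and the corrected median was -0.48. Genes of an arm are not replicates, no DNA copy number was measured here, and these values compare one line with the other, so that neither line is known to be the changed one.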

How the data were processed

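PolyA-selected RNA of normoxic RCC4 and HKC-8, 3 libraries each, was made into ScriptSeq libraries and sequenced. Per the labels and the study's methods, the authors trimmed adapters (Trim Galore 0.3.3), aligned reads to GRCh37 (TopHat2 2.0.8b, Bowtie 1.0.0), removed reads that mapped to several places (SAMtools 0.1.19) and deposited the count of reads per gene (HTSeq 0.5.4p3). Removing such reads lowers genes with near-identical copies. The deposited counts were tested with edgeR 4.0.16 in R 4.3.3: filterByExpr, TMM scaling and a quasi-likelihood fit of the 6 libraries without covariates. Adjustment was by Benjamini-Hochberg over all 13755 genes tested, with an adjusted p of 0.05 as the threshold. Log2 fold changes are RCC4 over HKC-8. TMM-scaled CPM are CPM of the TMM-scaled total, while on/off calls and bounds use CPM of the plain total. A gene at 0 counts in a line was bounded with 3 counts per library. Ratios of genes with few counts carry exact 95% intervals, and these intervals and bounds cover counting error only. The length and GC correction subtracted, within each library, a loess trend (span 0.3) on transcript length and GC content, known for 95.8% of genes, and was chosen after seeing the data. Symbols were matched to the GRCh37 annotation, 85.8% directly and 6.31% through RefSeq synonyms, and 98 of 23106 genes were left out of lists and on/off classes. On simulated counts of 13640 genes, 85.9% of 99 genes changed by 1 on the log2 scale were called, and all 100 changed by 5. Of all calls there, 6.09% were false. Only these few genes were changed, whereas 85.0% were called in the data, so scaling and false calls in that setting were not tested. The members, gene lists and naming rule were chosen with earlier results of these data known. Named were the 12 on/off genes of each direction with the widest separation, preset genes and up to 5 members each way of every list with the widest difference without overlap, and the 10 genes each way with the widest difference among those at 100 CPM or more. Alternatives were other scalings, filters, thresholds and fits, DESeq2 1.42.0, thinning to the lowest total, and leaving out each library. A few members of the lists are not reported here.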

Additional observations from a re-analysis of the deposited data

How the results depend on the processing

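Most counts depended on the thresholds far more than on the fit. With at least 10 counts required in every library, which removes on/off genes by construction, large differences fell to 123 higher in RCC4 and 34 higher in HKC-8. Tested against a 2-fold difference (edgeR's glmTreat), 2778 and 2785 genes were called. With a minimum of 3 on the log2 scale in place of 5, 1157 and 1036 differences were large, and with 7, 401 in RCC4 and 445 in HKC-8. On/off genes numbered 329 and 312 with 1 CPM as the lower limit of on, 52 and 97 with 0 counts as off, and 277 in RCC4 with 0.5 CPM as the upper limit of off. Leaving out each library in turn gave 5472 to 5900 genes higher in RCC4 and 5812 to 6119 higher in HKC-8. Large differences then numbered 661 to 698 and 612 to 753, and on/off genes 165 to 185 and 152 to 159. The on/off rule must hold in every library, so by construction leaving a library out cannot lower its counts. DESeq2 called 5702 and 5949 genes, 11598 of them in the same direction as edgeR, and the length and GC correction left 5474 and 5648. With the replicate number as a block, 5666 and 5910 genes were called and 655 and 633 were large, but libraries of the same number did not deviate together (correlations of -0.01, 0.02 and 0.02), so the numbers pair nothing. Of the other settings of these counts, 78 stayed within 1.5 times.

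Over 3596 alternative values of 251 named genes, 3586 kept their direction and their side of the threshold. The log2 fold change of HIF1A turned to -0.0043 under scaling to the total count, and ranged from -0.027 (without HKC-8 replicate 3) to 0.049 when each library was left out. CDH1 ranged from -1.19 (without HKC-8 replicate 2, when it was called) to 0.021 (without HKC-8 replicate 3). With the length and GC correction, MT1E turned to -0.20, and HIF1A was called at 0.29. PAX8 lost its call without RCC4 replicate 3 (-0.28, edgeR adjusted p = 0.0573). The cause of these turns was not tested. The lower depth of RCC4 limits how far a gene with 0 counts there can be called lower.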
